A study of Mus musculus with 8 samples.

Results

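The genes described are the G1 cyclins Ccnd1, Ccnd2, Ccnd3, Ccne1 and Ccne2, the kinases Cdk4 and Cdk6, and the retinoblastoma family Rb1, Rbl1 and Rbl2. Every probe set of the array whose annotation names 1 of these 10 genes and no other was taken, which gave 30 of 45101 probe sets. The comparison is between haematopoietic stem cells of Crebbp+/- and of wild-type mouse fetal liver, both on a C57BL/6 background. Crebbp encodes CBP, which acetylates histones and is recruited by many transcription factors, and the Crebbp+/- embryos carry 1 mutant copy. Cells had been sorted as Sca-1+, Lin- (lineage-negative), AA4.1+ and c-Kit++, and the age is given as 14.5 days post coitum in one label field and as 14 in another. Each genotype had 2 numbered samples of 15 pooled embryos, and each sample had 2 arrays, for which 12 ng of total RNA was amplified. The labels do not say whether the numbered samples are separate litters, so p-values cover the spread between these preparations, which may be technical.

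D-type cyclins are made in response to growth factors and bind Cdk4 or Cdk6. The active kinases phosphorylate the pocket proteins encoded by Rb1, Rbl1 (p107) and Rbl2 (p130), which otherwise hold E2F transcription factors in check, and E2F release turns on Ccne1 and Ccne2, whose products drive Cdk2 into S phase. Mouse embryos without all D cyclins, or without both Cdk4 and Cdk6, die with failing blood formation, so fetal liver stem cells are a tissue in which this pathway is known to matter.

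Promoters are shown for 2 genes, Cdk6 and Rbl1, whose brightest probe sets were higher in Crebbp+/- at similar size. Cdk4, the close relative of Cdk6 whose 3 probe sets each differed by 0.10 or less, is shown beside them. Neither Cdk6 nor Rbl1 passed the test between genotypes, and a second Rbl1 probe set was lower in Crebbp+/-. Rbl2, whose brightest probe set differed by 0.65, is not shown. A link between promoter sequence and genotype was not tested. RefSeq windows on GRCm38.p6, from 250 bases before to 50 bases after the gene start, were listed for 6 of the 10 genes. The windows lie at chr5:3343643-3343942 (plus strand) for Cdk6, chr2:157204485-157204784 (minus strand) for Rbl1 and chr10:127063285-127063584 (plus strand) for Cdk4. Capitals mark every match, on either strand, to an E2F site (TTTCGCGC, TTTGGCGC, TTTCCCGC or TTTGCCGC), to the E-box CACGTG, or to TGACG, the first part of the cAMP response element TGACGTCA through which CREB recruits CBP.
Cdk6: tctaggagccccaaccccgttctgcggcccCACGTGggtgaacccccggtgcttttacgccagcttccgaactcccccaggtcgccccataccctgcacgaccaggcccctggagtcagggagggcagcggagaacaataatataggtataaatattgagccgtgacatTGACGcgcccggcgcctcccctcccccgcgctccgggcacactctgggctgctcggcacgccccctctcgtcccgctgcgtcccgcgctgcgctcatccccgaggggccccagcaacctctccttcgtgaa
Rbl1: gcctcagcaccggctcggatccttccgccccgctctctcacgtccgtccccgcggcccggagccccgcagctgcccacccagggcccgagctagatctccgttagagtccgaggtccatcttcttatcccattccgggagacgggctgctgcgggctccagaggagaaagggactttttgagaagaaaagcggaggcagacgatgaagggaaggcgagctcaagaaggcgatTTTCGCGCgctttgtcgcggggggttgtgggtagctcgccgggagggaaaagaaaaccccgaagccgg
Cdk4: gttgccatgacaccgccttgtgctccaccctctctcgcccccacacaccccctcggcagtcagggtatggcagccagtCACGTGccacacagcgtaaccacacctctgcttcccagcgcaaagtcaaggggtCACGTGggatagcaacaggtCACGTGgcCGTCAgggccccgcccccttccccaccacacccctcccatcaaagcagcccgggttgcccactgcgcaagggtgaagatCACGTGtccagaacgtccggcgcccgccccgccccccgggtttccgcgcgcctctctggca
Rbl1 had 1 E2F match, at position -18 from the start, as did 2.26% of 32851 listed promoter windows of this length. Cdk4 had 4 E-boxes, at -172, -118, -98 and -11, and 4 or more occurred in 0.0244% of windows, against 7.15% with at least 1. The cut of 4 is the Cdk4 count itself, so this share is a description and not a test. Cdk6 had 1 E-box at -220. The short TGACG occurred at -81 in Cdk6 and at -90 in Cdk4, and in 20.8% of all windows. No window of these 3 genes held the full TGACGTCA, which 1.79% of windows hold. Matches do not overlap each other, except that the full element would contain the short one, and a match is a string of letters and not a shown binding site.

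No probe set of these genes passed the test between genotypes. Of the 30, 25 averaged above 2.72, the filter set at the median of all probe sets, and were tested with limma among 22518 probe sets, of which 0% passed an adjusted p of 0.05. An unadjusted p below 0.05 was reached by 1 of the 25, a Ccnd2 probe set, against 4.84% of all tested probe sets. All 4 Crebbp+/- arrays lay above all 4 wild-type arrays at 1 probe set, for Cdk6, against a background of 3.24%, and all lay below at 1, that of Ccnd2, against 3.74%. Each of these counts is close to its background share. The median difference, Crebbp+/- minus wild type on the log2 scale as throughout, was 0.098 over the 25 probe sets and 0.019 over all tested ones, and the median size regardless of sign was 0.132 against 0.214. The 2 arrays of a sample differed by a median of 0.213 at the 25 probe sets and of 0.225 at all tested ones. That gap is between single arrays, whereas a genotype difference is between means of 4 arrays, so their sizes cannot be set against each other directly.

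Crebbp itself was read by 4 probe sets that differed by -0.42 to 0.07 with limma adjusted p of at least 0.991, and which part the mutant allele lacks is not in the labels, so these do not check the genotype. Array medians lay between 2.65 and 2.70. Of 11 stem and progenitor genes measured here, Kit and Cd93 (AA4.1) among them, all were above the filter, and the Sca-1 gene Ly6a was not analysed here. The mean log2 signal over 7 markers of dividing cells was 10.27 and 10.55 in the Crebbp+/- samples, against 10.32 and 10.30 in the wild-type samples, so the genotypes overlapped. Hepatocyte markers did not run alike in all samples. Of 6 such markers, 5 were above the filter and Fgb was below it. The mean log2 signal over the 6 was 5.39 and 5.76 in Crebbp+/- samples 1 and 2, against 3.02 and 6.49 in wild-type samples 1 and 2. Of the 10 marker lists, 3 had both Crebbp+/- means above both wild-type means and 3 had both below. With 2 samples per genotype such separation arises easily. Its share over all genes was not counted, so the number of lists is not read as a shift in cell types. B lymphoid markers (5 of 7 above the filter, Cd79a and Pax5 below) averaged 4.65 and 4.76 in Crebbp+/-, against at most 4.43 in the wild-type samples. Mast cell markers (2 of 5 above the filter) averaged 3.08 and 3.07 in Crebbp+/-, against 2.58 and 2.61 in wild type, and erythroid ones (2 of 6) 3.92 and 3.88 in Crebbp+/-, against 3.71 and 3.72 in wild type. Megakaryocyte markers (4 of 6) averaged 3.16 and 3.30 in Crebbp+/-, against 3.70 and 3.82 in wild type. The stem and progenitor list, at 9.74 and 9.68 in Crebbp+/- against 9.94 and 9.75 in wild type, and the endothelial and stromal list (2 of 8), at 3.61 and 3.53 in Crebbp+/- against 3.72 and 3.66 in wild type, were the other two that were lower. The part of these cell types in the values that follow was not tested. In sorted pools, fewer cells of a type and less RNA per cell cannot be told apart.

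**Figure D1:**
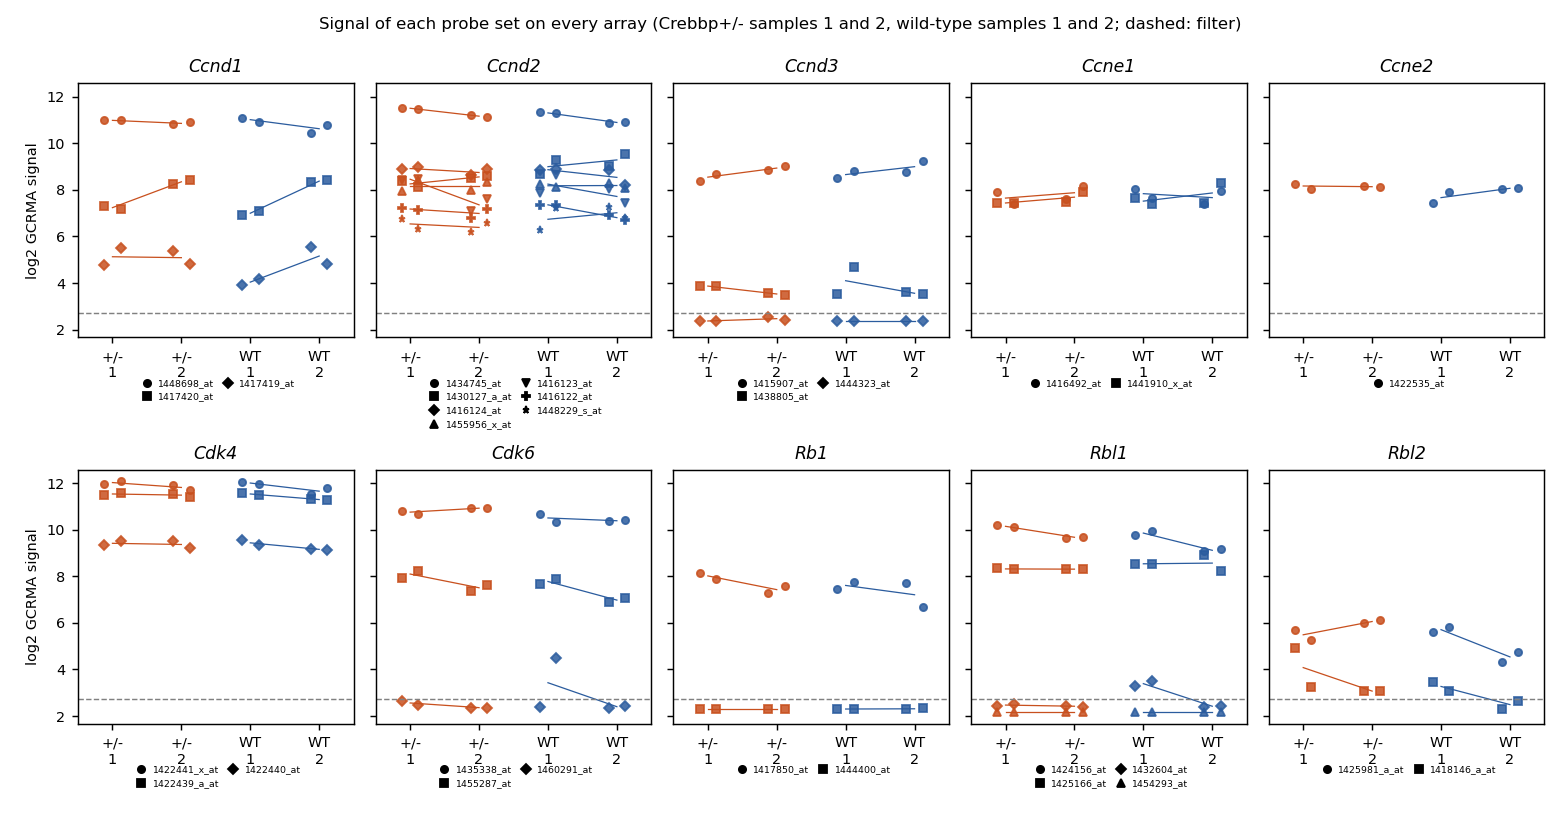
Log2 GCRMA signal (y axis) of all 30 probe sets, a panel per gene and a symbol per probe set, on each array of Crebbp+/- samples 1 and 2 (orange) and of wild-type samples 1 and 2 (blue). Lines join sample means and the dashed line is the filter of 2.72. At most probe sets the orange and blue points overlap, the brightest Cdk6 probe set is higher on all Crebbp+/- arrays, and 5 probe sets lie at or near background in nearly every array.

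The D cyclins were detected in both genotypes. Ccnd1, cyclin D1, had 3 probe sets. At the brightest, 1448698_at, sample means were 10.99 and 10.86 in Crebbp+/-, against 11.02 and 10.63 in wild type. The values overlapped, and the difference was 0.11 (SE 0.19, 95% interval -0.40 to 0.61, limma adjusted p = 0.994). At 1417420_at the arrays read 7.31 and 7.17 for Crebbp+/- sample 1 and 8.26 and 8.43 for Crebbp+/- sample 2, against 6.92 and 7.08 for wild-type sample 1 and 8.33 and 8.42 for wild-type sample 2. This probe set followed the sample number and not the genotype, with sample 2 higher than sample 1 by 1.10 in Crebbp+/- and by 1.38 in wild type, while the genotype difference was 0.11 (SE 0.62, interval -1.50 to 1.72). At 1417419_at, wild-type sample 1 stood below the rest, with 5.13 and 5.09 in Crebbp+/- against 4.04 and 5.16 in wild type. Its difference of 0.51 (SE 0.44) came to 1.09 within the samples numbered 1 and to -0.07 within those numbered 2. Wild-type sample 1 was also the library with the lowest hepatocyte signal, and the part of that in the Ccnd1 value was not tested.

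Between the sample numbers, 2 Ccnd1 probe sets moved in opposite directions, and a measure of RNA quality differed as well. The Gapdh 5' minus 3' signal, which drops as transcripts are shortened, was -0.89 and -1.88 in Crebbp+/- samples 1 and 2, against -1.22 and -2.59 in wild-type samples 1 and 2, so it was lower in sample 2 of both genotypes and higher in Crebbp+/- than in wild type within both numbers. Over the same samples 1448698_at was lower in sample 2, by -0.13 in Crebbp+/- and -0.39 in wild type, whereas 1417420_at was higher. The remaining Ccnd1 probe set, 1417419_at, changed by -0.04 in Crebbp+/- and by 1.12 in wild type. The 4 sample means ran in the same order as the Gapdh signal at 8 of the 25 probe sets, or 32%, against 12.7% of all tested probe sets. The 8 were 1434745_at and 1416124_at of Ccnd2, 1422441_x_at and 1422439_a_at of Cdk4, 1455287_at of Cdk6, 1417850_at of Rb1, 1424156_at of Rbl1 and 1418146_a_at of Rbl2. Another 2, 1415907_at of Ccnd3 and 1441910_x_at of Ccne1, ran in the reverse order, against 8.87% of all. No Ccnd1 probe set was among the 8 or among these 2. The part of RNA quality in these values was not tested.

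Ccnd2, cyclin D2, had 7 tested probe sets whose differences ran from -0.74 to 0.24. The brightest, 1434745_at, had 11.51 and 11.17 in Crebbp+/- samples 1 and 2, against 11.31 and 10.90 in wild type. Within each sample number the Crebbp+/- value was the higher one, by 0.20 and 0.28, but the 2 genotypes overlapped across numbers, and the difference was 0.24 (SE 0.22, interval -0.33 to 0.80, limma adjusted p = 0.991), or 0.03 without wild-type sample 2. The opposite held at 1430127_a_at, a type of probe set that matches several transcript variants of a gene. Its arrays read 8.39, 8.13, 8.51 and 8.61 in Crebbp+/-, against 8.70, 9.30, 9.01 and 9.56 in wild type. Every Crebbp+/- array lay below every wild-type array, with means of 8.41 ± 0.21 in Crebbp+/- and 9.14 ± 0.20 in wild type (SD, n = 2 samples each). The difference of -0.74 (SE 0.24, interval -1.36 to -0.11, unadjusted p = 0.0293, limma adjusted p = 0.991) was nearly the same within samples 1 (-0.74) and samples 2 (-0.73). It was the only one of the 25 whose interval left out 0. A further probe set, 1448229_s_at, was also lower within both numbers, by -0.20 and -0.63, for a difference of -0.42 (SE 0.28). Its name ending marks probes that can match transcripts of more than 1 gene. At 1416124_at the samples had 8.92 and 8.75 in Crebbp+/-, against 8.87 and 8.54 in wild type, and at 1455956_x_at 8.18 and 8.18 in Crebbp+/-, against 8.18 and 8.19 in wild type. At 1416123_at they had 8.46 and 7.36 in Crebbp+/-, against 8.25 and 7.72 in wild type, and at 1416122_at 7.18 and 6.99 in Crebbp+/-, against 7.36 and 6.81 in wild type. The arrays of the genotypes overlapped at all 4 of these, which differed by -0.08 to 0.13, so the 7 probe sets had no common direction.

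Ccnd3, cyclin D3, was read most brightly by 1415907_at, whose arrays gave 8.40, 8.70, 8.86 and 9.02 in Crebbp+/-, against 8.50, 8.83, 8.75 and 9.24 in wild type. The genotypes overlapped, and the difference was -0.08 (SE 0.26, interval -0.76 to 0.59). A dim probe set, 1438805_at, differed by -0.13 (SE 0.29), and 1444323_at, at 2.42 in Crebbp+/- and 2.38 in wild type, was at background and was not tested.

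As a description of pattern alone, the tested probe sets of other genes that ran most like the brightest one of each D cyclin over the 8 arrays were listed by Pearson r. The arrays repeat 4 samples and the nearest were picked from 10600 tested genes, so high values arise easily and no p is attached. Nearest to Ccnd1 were Ndc80 (r = 0.982), Cln6 (0.970) and Ptprj (0.963). Nearest to Ccnd2 were Kars (0.996), Csnk2a2 (0.996) and Foxk2 (0.994), and nearest to Ccnd3 were Tmem138 (0.986), Rab5a (0.967) and Tmem38b (0.962).

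Cdk4, the first of the D cyclin kinases, differed little between genotypes, by 0.09, 0.10 and 0.10 at its 3 probe sets. The brightest, 1422441_x_at, had 12.03 and 11.82 in Crebbp+/-, against 12.01 and 11.66 in wild type, and the range of one genotype lay largely within that of the other. At 1422439_a_at the interval was -0.29 to 0.49 (SE 0.15, limma adjusted p = 0.994), the narrowest of all 25, so differences of 1 log2 unit either way lie outside it. At 1422440_at the samples had 9.42 and 9.37 in Crebbp+/-, against 9.44 and 9.16 in wild type, and again overlapped. The ending of 1422441_x_at marks probes that may cross-hybridise, yet its values ran as at the other 2.

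Cdk6, the other D cyclin kinase, was higher in Crebbp+/- at both of its detected probe sets without passing the test. At 1435338_at the arrays read 10.82, 10.70, 10.92 and 10.94 in Crebbp+/-, against 10.68, 10.33, 10.38 and 10.41 in wild type. All Crebbp+/- arrays lay above all wild-type arrays, though the closest were 10.70 and 10.68. Means were 10.84 ± 0.12 in Crebbp+/- and 10.45 ± 0.08 in wild type (SD, n = 2 samples each), a difference of 0.39 (SE 0.16, interval -0.02 to 0.81, unadjusted p = 0.0588, limma adjusted p = 0.991), with 0.25 within samples 1 and 0.54 within samples 2. At 1455287_at the samples had 8.10 and 7.51 in Crebbp+/-, against 7.78 and 6.98 in wild type, a difference of 0.42 (SE 0.40, interval -0.62 to 1.46). There the sample number moved the signal more than the genotype did, by -0.59 in Crebbp+/- and -0.80 in wild type, and the genotypes overlapped across numbers. Leaving out 1 sample brought this difference to 0.02 (wild-type sample 2 omitted), 0.13 (Crebbp+/- sample 1), 0.72 (Crebbp+/- sample 2) or 0.82 (wild-type sample 1). Its samples ran in the order of the Gapdh signal, whereas those of 1435338_at did not. The third probe set, 1460291_at, averaged below the filter and was not tested. It read between 2.35 and 2.64 on 7 arrays and 4.48 on array 2 of wild-type sample 1.

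Ccne1, cyclin E1, had 7.65 and 7.88 in Crebbp+/-, against 7.84 and 7.67 in wild type, at 1416492_at. The genotypes overlapped, with a difference of 0.01 (SE 0.25, interval -0.63 to 0.65). Its other probe set, 1441910_x_at, differed by -0.13 (SE 0.27). Ccne2, cyclin E2, had 8.17 and 8.14 in Crebbp+/-, against 7.67 and 8.07 in wild type. Both Crebbp+/- sample means were above both wild-type ones, by 0.49 within samples 1 and by 0.07 within samples 2. Single arrays overlapped, with 8.06 in Crebbp+/- sample 1 below 8.08 in wild-type sample 2. The Ccne2 difference of 0.28 (SE 0.26, interval -0.38 to 0.95, limma adjusted p = 0.991) was 0.09 without wild-type sample 1.

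Among the pocket proteins, Rb1 was detected at 1417850_at, with 8.02 and 7.43 in Crebbp+/-, against 7.61 and 7.21 in wild type. The genotypes overlapped across numbers, and the difference was 0.32 (SE 0.33, interval -0.54 to 1.18), with 0.41 and 0.23 within samples 1 and 2, and was 0.03 without Crebbp+/- sample 1. A second Rb1 probe set, 1444400_at, stayed at background, between 2.29 and 2.33 on every array.

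Rbl1, whose product p107 is itself made under E2F control, had 2 detected probe sets with opposite signs. At the brighter, 1424156_at, sample means were 10.15 and 9.68 in Crebbp+/-, against 9.86 and 9.12 in wild type. Values were higher in Crebbp+/- within each number, by 0.29 and 0.56, and overlapped across numbers, with a difference of 0.42 (SE 0.33, interval -0.44 to 1.28) that was 0.05 without wild-type sample 2 and 0.79 without wild-type sample 1. The Gapdh signal was likewise higher in Crebbp+/- within each number, and its part in this difference was not tested. At 1425166_at the means were 8.32 and 8.31 in Crebbp+/-, against 8.54 and 8.57 in wild type, a difference of -0.23 (SE 0.21, interval -0.77 to 0.31) that was -0.21 and -0.25 within samples 1 and 2. Although the sample means of this second probe set hardly varied within a genotype, the 2 arrays of wild-type sample 2 read 8.90 and 8.23. That gap of 0.67 was the largest, and the median gap between the 2 arrays of a sample was 0.02. The other 2 Rbl1 probe sets were at background, apart from 1432604_at in wild-type sample 1 at a mean of 3.39.

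Rbl2, encoding p130, the pocket protein of resting cells, had the largest positive differences and among the widest intervals. At 1425981_a_at the samples read 5.49 and 6.06 in Crebbp+/-, against 5.71 and 4.54 in wild type. Wild-type sample 2 was the low one, and the difference of 0.65 (SE 0.50, interval -0.66 to 1.95) was -0.23 within samples 1 and 1.52 within samples 2, and it was 0.06 without wild-type sample 2. At 1418146_a_at they read 4.08 and 3.07 in Crebbp+/-, against 3.27 and 2.49 in wild type, a difference of 0.70 (SE 0.45, interval -0.48 to 1.89). The difference was 0.28 without the single Crebbp+/- array that read 4.92, 0.20 without Crebbp+/- sample 1 and 1.21 without Crebbp+/- sample 2. This second signal is near background, where the size of a difference is uncertain.

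**Figure D2:**
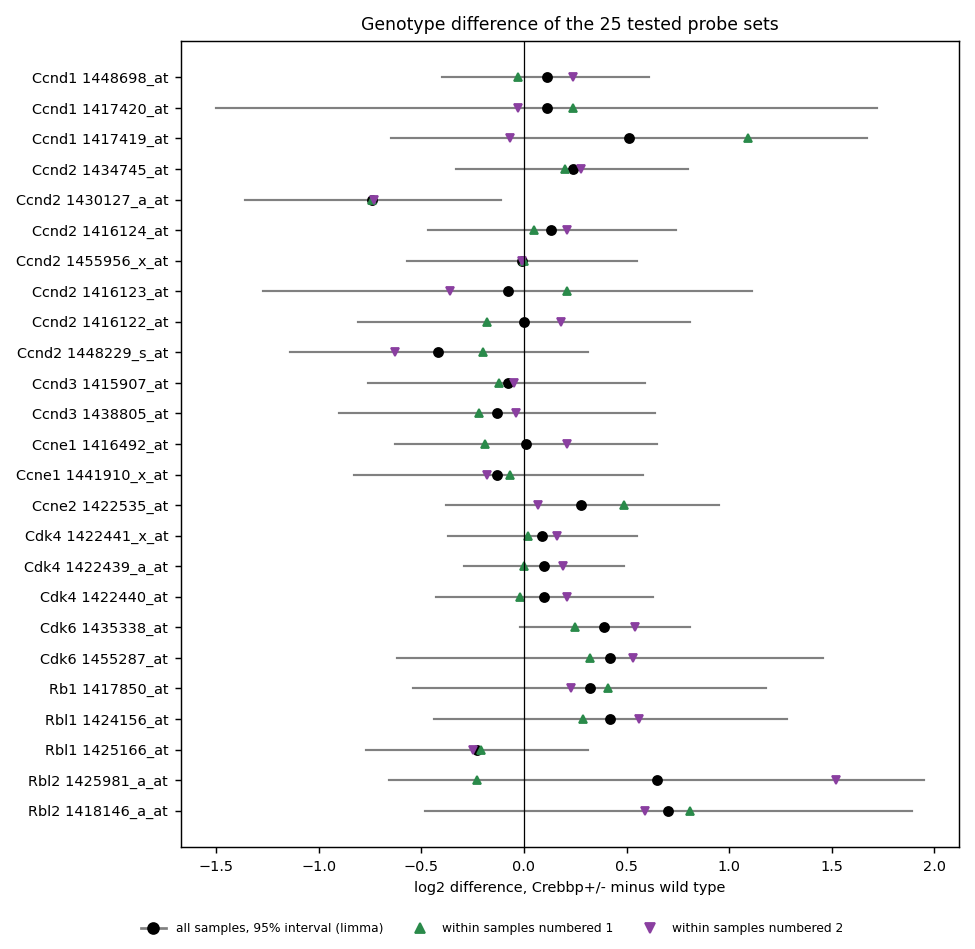
Log2 difference, Crebbp+/- minus wild type (x axis), for the 25 tested probe sets (rows). Black points are the difference over all samples with its 95% limma interval, and triangles are the differences within samples numbered 1 (up) and 2 (down). Only the Ccnd2 probe set 1430127_a_at, at -0.74, has an interval that leaves out 0.

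Within sample numbers, 10 of the 25 probe sets were higher in Crebbp+/- in both numbers, against 33.9% of all tested probe sets, and 7 were lower in both, against 28.5%. The 10 covered both detected Cdk6 probe sets, 2 of Cdk4, 2 of Ccnd2 and 1 each of Ccne2, Rb1, Rbl1 and Rbl2. All 8 probe sets that ran in the order of the Gapdh signal were among these 10. That order itself places Crebbp+/- above wild type within both numbers, and the part of RNA quality was not tested. The 7 covered 3 of Ccnd2, both tested ones of Ccnd3 and 1 each of Ccne1 and Rbl1, and held the 2 that ran in the reverse of the Gapdh order. Some signs rest on very small differences. Within samples 1, Cdk4 1422441_x_at differed by 0.02 and 1422439_a_at by 0.00 at this rounding. Ccnd2 1455956_x_at differed by -0.01 within samples 2. These shares, 40% and 28%, are near the background.

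The sample number went with larger differences than the genotype at most of these probe sets, as it did over the whole array. Its mean effect, sample 2 minus sample 1 averaged over genotypes, was larger in size than the genotype difference at 18 of 25 probe sets, or 72%, against 61.3% of all tested probe sets. The median size of the number effect was 0.298 over the 25 and 0.300 over all, so both measures are near the background. The brightest Ccnd1, Ccnd2, Cdk4 and Rbl1 probe sets, and that of Rb1, were lower in sample 2 of both genotypes, and that of Ccnd3 was higher, by 0.39 in Crebbp+/- and 0.33 in wild type.

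**Figure D3:**
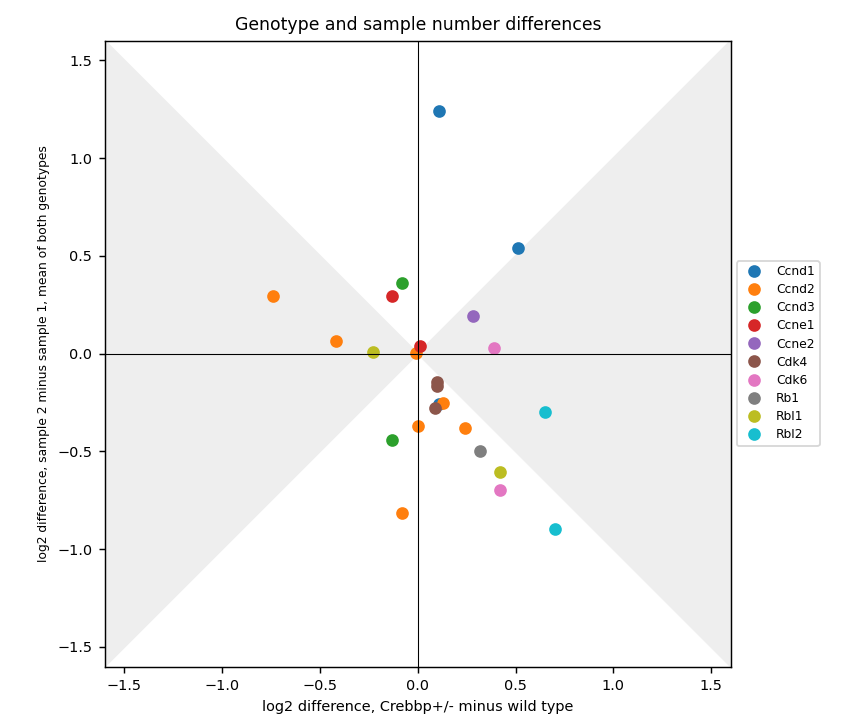
Log2 difference by genotype (x axis, Crebbp+/- minus wild type) against log2 difference by sample number (y axis, sample 2 minus sample 1, mean of both genotypes) for the 25 tested probe sets, coloured by gene. In the white sectors, which hold 18 points, the sample number difference is the larger.

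Other genes of the pathway were read through 8 lists, with the brightest probe set standing for each gene. Of the 24 genes named below, 8 (Arid4a, Ccnc, Ccng1, Cdk7, E2f2, Lin54, Rrm1 and Skp2) had another tested probe set with the opposite sign, such as -0.62 for Rrm1, 0.11 for Lin54, -0.42 for Ccnc and -0.35 for Skp2. No member passed the test in either direction in any list, and the median difference over all 10600 tested genes was 0.042. E2F factors and their DP partners (10 tested) had a median of 0.01, and E2f7, a repressor of the family, had the lowest p in it with 7.63 in Crebbp+/- and 6.70 in wild type, a difference of 0.93 (SE 0.57). E2f8, the related repressor, differed by -0.15 (SE 0.22) and E2f2, an activator, by -0.21 (SE 0.37). The 24 tested E2F targets had a median of 0.08, with 17 positive and 7 negative differences, or 70.8% positive, against 56.9% of all tested genes. That median was -0.02 without Crebbp+/- sample 2. Cdc6, which loads the replicative helicase, differed by 0.35 (SE 0.22), the mitotic kinase gene Plk1 by 0.42 (SE 0.31), and Rrm1, a subunit of ribonucleotide reductase, by 0.23 (SE 0.17). Of 5 tested genes in the list of MuvB and DREAM complex subunits, Lin54 differed by -0.56 (SE 0.25), Lin37 by -0.42 (SE 0.38) and Mybl2 by 0.20 (SE 0.35), around a list median of -0.05.

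CDK inhibitors, the brake on these kinases, had 4 tested genes with a median of -0.20. Cdkn1c (p57) differed by -0.82 (SE 0.46), made up of -1.73 within samples 1 and 0.09 within samples 2, at signals of 2.96 in Crebbp+/- and 3.78 in wild type that lie near background. Cdkn1a (p21) differed by -0.35 (SE 0.49) and Cdkn1b (p27) by 0.10 (SE 0.20). The 16 tested genes of cyclin and kinase turnover and folding had a median of 0.06. Usp2, a deubiquitinase that acts on cyclin D1, differed by 0.97 (SE 0.37, limma adjusted p = 0.991), Fbxo4, part of a ubiquitin ligase, by 0.46 (SE 0.26), and Skp2, the ligase subunit that targets p27, by 0.35 (SE 0.22).

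Among 15 tested inducers of D cyclins the median was 0.06. With 1 sample left out it ran from -0.01 (wild-type sample 2 omitted) to 0.38 (wild-type sample 1 omitted). Lef1, a transcription factor of the Wnt pathway that can act at the Ccnd1 promoter, had 4.63 and 4.52 in Crebbp+/-, against 3.41 and 3.69 in wild type. The difference was 1.03 (SE 0.24, unadjusted p = 0.00932, limma adjusted p = 0.991). It was the only unadjusted p below 0.05 among the 104 genes of the 8 lists, or 0.962%, against 2.67% of all tested genes and 4.84% of all tested probe sets. B lymphoid markers were also higher in both Crebbp+/- samples, and their part in the Lef1 value was not tested. Stat5b and Stat5a, which carry cytokine signals to the Ccnd genes, differed by 0.42 (SE 0.26) and 0.29 (SE 0.22). In the list of other cyclins and kinases (17 tested, median 0.08), Ccnc, cyclin C, differed by 0.56 (SE 0.41), Ccng1, a p53 target, by 0.44 (SE 0.24) and Cdk7, which activates other CDKs, by 0.35 (SE 0.32). Of 13 tested partners of the Rb pocket, with a median of -0.01, Prmt5 differed by 0.42 (SE 0.41), Phf8 by 0.35 (SE 0.27) and Arid4a by 0.22 (SE 0.20).

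**Figure D4:**
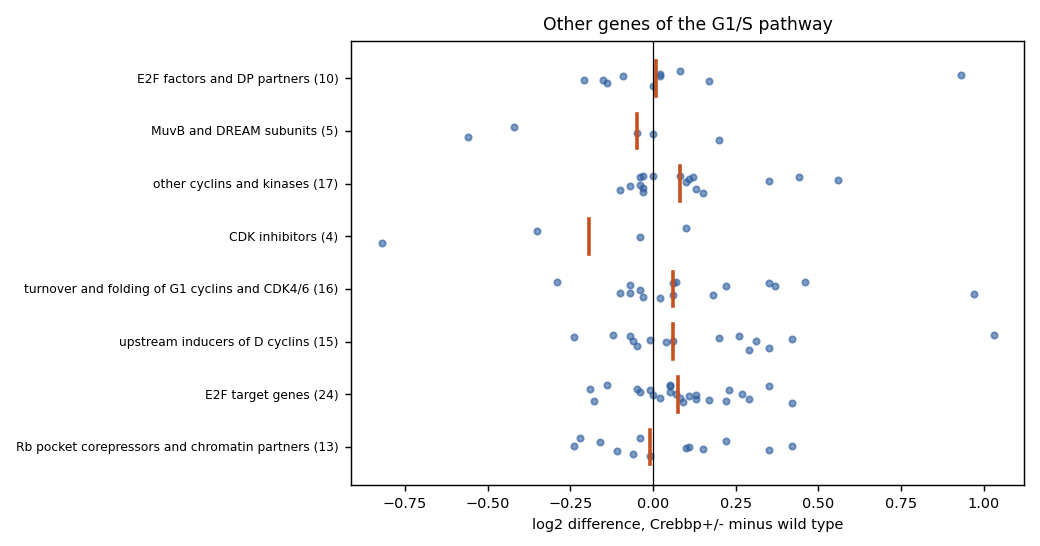
Log2 difference, Crebbp+/- minus wild type (x axis), of each tested gene (points, brightest probe set) in the 8 pathway lists (rows, number of genes in brackets), with list medians as orange bars. Medians lie between -0.20 and 0.08, and the farthest points are Lef1 at 1.03, Usp2 at 0.97, E2f7 at 0.93 and Cdkn1c at -0.82.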

How the data were processed

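Total RNA of sorted fetal liver stem cells was measured on 8 Affymetrix mouse arrays. The authors deposited log2 signals. Per the submitters' processing notes these were computed by GCRMA, which corrects background and normalizes across arrays, in a version not given in the sources used here. GCRMA draws undetected probe sets towards a common low value, so differences near background are compressed or erratic. Arrays have no read depth, and their number limits the precision. After removal of 64 control probe sets, those with a mean above the median of 2.72 were tested (22518 of 45037). The 2 arrays of a numbered sample were averaged, since nothing marks them as separate cells, giving n = 2 per genotype. The fit used limma 3.58.1 under R 4.3.3 (eBayes with an intensity trend, 2 residual and 4.75 total degrees of freedom), with Benjamini-Hochberg adjustment over all tested probe sets and a threshold of 0.05. An exact permutation test was not used, since 2 samples against 2 cannot reach that threshold. The fit was tested on simulated data.

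Gene names came from the platform annotation, and gene identifiers of all 30 probe sets matched the GRCm38.p6 table without a change of symbol. All of them are reported. From each pathway list the 3 genes with the lowest unadjusted p were named. The genes and lists were chosen with earlier results of these data known. Alternatives covered replication, a block for the sample number, the filter, variance model, normalization, a floor, the probe set of a gene, and omission of each sample and array. Promoter sequences are from RefSeq (GRCm38.p6).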

Additional observations from a re-analysis of the deposited data

Results flagged for a closer look

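In 6 of 60 sets of 4 arrays (30 probe sets in 2 genotypes), 1 array stood apart from the other 3 by more than Dixon's critical value, which chance exceeds in about 1 set in 20. The 4 arrays are 2 repeats of 2 samples. Cdk6 1460291_at read 4.48 on array 2 of wild-type sample 1 and 2.35 to 2.44 on the others, and Ccnd3 1438805_at read 4.67 on the same array and 3.52 to 3.60 on the others. Both are dim probe sets. Rbl2 1418146_a_at read 4.92 on array 1 of Crebbp+/- sample 1 and 3.07 to 3.24 on the others of its genotype. Ccnd2 1416124_at read 8.21 on array 2 of wild-type sample 2 against 8.86 to 8.89, and Ccne1 1441910_x_at read 7.90 on array 2 of Crebbp+/- sample 2 against 7.43 to 7.48. Rb1 1444400_at read 2.33 on array 2 of wild-type sample 2 against 2.30, a gap within background.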

How the results depend on the processing

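None of the 25 tested probe sets passed the test under any of 21 alternatives (21 of the 25 could be run with the upper 25% of probe sets), the lowest adjusted p in limma being 0.147, and over all probe sets the count of 0 became 1 only with 8 arrays as independent samples. Same-numbered samples deviated alike (r = 0.554 across probe sets), but with 2 pairs the labels give only a number. With that number as a replicate block the count stayed at 0. Adjusted p in limma was then 0.147 for Ccnd2 1430127_a_at, 0.189 for Cdk6 1435338_at and 0.206 for Rbl1 1424156_at. The block leaves fewer residual degrees of freedom than the main fit, so these values rest on a poorly known spread. In all alternatives run, 11 probe sets kept 1 sign, of which Ccnd2 1430127_a_at (-0.89 to -0.58) and Cdk6 1435338_at (0.31 to 0.48) moved least relative to their size. At both of these the arrays did not overlap between genotypes, so leaving out a sample or array could not turn the sign. The others ran from 0.03 to 0.44 for Ccnd2 1434745_at, -0.66 to -0.18 for Ccnd2 1448229_s_at, 0.09 to 0.48 for Ccne2 1422535_at, 0.02 to 0.82 for Cdk6 1455287_at, 0.03 to 0.61 for Rb1 1417850_at, 0.05 to 0.79 and -0.40 to -0.07 for Rbl1 1424156_at and 1425166_at, and 0.06 to 1.23 and 0.20 to 1.21 for Rbl2 1425981_a_at and 1418146_a_at. Leaving out a sample or array turned the sign of others, with ranges of -0.09 to 0.30, -0.58 to 0.80 and -0.05 to 1.07 for Ccnd1 1448698_at, 1417420_at and 1417419_at, of -0.03 to 0.30, -0.12 to 0.11 and -0.63 to 0.47 for Ccnd2 1416124_at, 1455956_x_at and 1416123_at, of -0.28 to 0.11 and -0.42 to 0.16 for Ccnd3 1415907_at and 1438805_at, of -0.13 to 0.15 and -0.34 to 0.08 for Ccne1 1416492_at and 1441910_x_at, and of -0.09 to 0.26, -0.02 to 0.22 and -0.04 to 0.24 for Cdk4 1422441_x_at, 1422439_a_at and 1422440_at. Ccnd2 1416122_at, at 0.00, ran from -0.28 to 0.27. Quantile normalization turned Ccne1 1416492_at to -0.02; the cause was not tested. A genotype left with 1 sample was assumed to vary like the other. Of 40 list medians recomputed, 17 moved by more than the spread between samples, among them that of the CDK inhibitors, which was 0.10 without wild-type sample 1 and -0.52 without wild-type sample 2.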
